A study of Mus musculus with 4 samples.

Results

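Astrocyte markers were examined in cultures of 1° mouse oligodendroglial cells (OGCs) with Zfp276 intact or reduced by conditional deletion. The 10 genes were Gfap, Vim, Aqp4, Gja1, Atp1b2, Aldh1l1, Aldoc, Fabp7, S100b and Lcn2. They were taken by symbol from the 53465 genes of the count files, each symbol matched 1 entry, and all 10 passed the filter on low counts. Astrocytes are the other large glial population of the forebrain besides oligodendroglia. They supply neurons with metabolites, clear transmitter and potassium, and respond to injury or inflammation by a reactive state in which filament proteins and secreted acute-phase proteins increase. Several of their markers are shared. S100b, Fabp7 and Vim are also known from oligodendroglial precursors or other cells, whereas Aqp4, Aldh1l1 and Gfap are more closely tied to astrocytes.

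RNA-Seq libraries came from cultures prepared from the forebrain of mice at postnatal day 2 to 4 by way of mixed glial culture, shake-off and depletion of microglia, and kept in differentiation conditions for 3 days. The ctrl cultures (2 libraries) were Zfp276 flox/flox, and the Zfp276cko cultures (2 libraries) were Sox10::Cre tg; Zfp276 flox/flox. Sox10::Cre is active in oligodendroglial cells from the precursor stage onward, the study's methods add a Rosa26 stopfloxtdTomato reporter allele for these culture mice and CNTF in the differentiation medium of both genotypes, and each culture pooled several mice. Zfp276, the targeted gene, had 1648 and 2230 normalized counts in the ctrl libraries and 489 and 503 in the Zfp276cko libraries, so that 25.6% of the ctrl level was left.

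A normalized count is the number of reads on a gene scaled to a common library size. The ctrl libraries held 21311469 and 21068322 counted reads and the Zfp276cko libraries 25265366 and 26599809, so both Zfp276cko libraries were the deeper. The oligodendroglial markers were abundant in every library. The ctrl libraries stood further apart than the Zfp276cko libraries. Over 14324 genes with 20 or more normalized counts on average, the median ratio between replicates was 1.22-fold in ctrl and 1.06-fold in Zfp276cko cells. ctrl replicate 1 carried 14.6 times the summed fibroblast and mural cell markers of ctrl replicate 2 and 0.302 times its summed neuronal markers. With 2 libraries per genotype an exact permutation test cannot go below a two-sided p of 0.333.

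The astrocyte markers did not move together with the genotype. Lcn2, a secreted protein of reactive astrocytes, was 2.41-fold higher in Zfp276cko cells, and Aldh1l1, a folate enzyme and general astrocyte marker, was 1.84-fold higher. Gfap, the defining filament protein of astrocytes, was at 96.7% of ctrl. Aldoc and S100b were at 70.9% and 71.3%. Calls required an adjusted p (Benjamini-Hochberg) within 0.05, a log2 fold change of 0.6 or more in size and 20 or more normalized counts on average. By edgeR's quasi-likelihood test 0 of the 10 markers were called higher and 0 lower, as were 0% of the 15766 tested genes in either direction. The smallest edgeR adjusted p over all tested genes was 0.0725, so the targeted gene Zfp276 was not called either. With an unadjusted p up to 0.05, 1 marker (Lcn2) was higher and 0 were lower, against a background of 8.33% of tested genes higher and 7.3% lower. DESeq2 called 1 marker higher, again Lcn2, and 0 lower, while it called 3.05% of 14754 genes higher and 2.3% lower.

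For 3 of the 10 markers (Lcn2, Aldh1l1 and Vim) the Zfp276cko libraries were both higher than either ctrl library, and they were both lower for 2 (Aldoc and S100b). Over all tested genes these shares were 26.8% and 23.7%, so the counts of the markers lay near the background. For the other 5 markers both Zfp276cko libraries lay between the 2 ctrl libraries. The median log2 fold change of the 10 markers was 0.067, and that of all tested genes was -0.0013. In RNA from whole cultures, fewer cells of a type and less RNA per cell cannot be told apart.

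**Figure D1:**
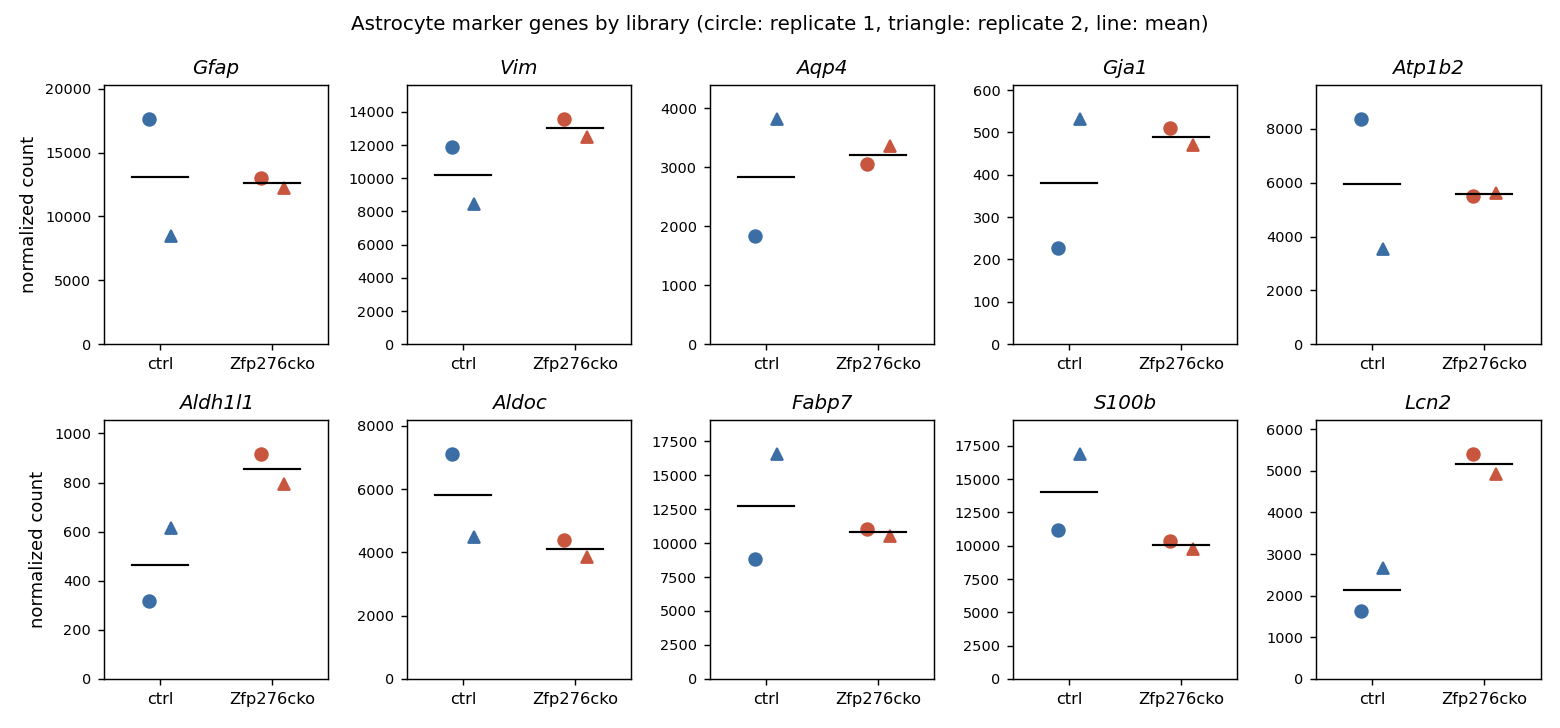
Normalized counts of the 10 astrocyte marker genes (vertical axes, each from 0) in ctrl (blue) and Zfp276cko (red) libraries, with circles for replicate 1, triangles for replicate 2 and lines for the mean of each genotype (n = 2). The Zfp276cko replicates sit close to each other in every panel, and for Lcn2 and Aldh1l1 both sit above both ctrl replicates.

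The separation of the ctrl replicates was large for these genes. Of the 10 markers, 9 differed 1.5-fold or more from one ctrl library to the other and 0 did so in the Zfp276cko pair. The median ratio between replicates was 1.92-fold in ctrl and 1.09-fold in Zfp276cko cells. The markers did not share a direction there, since 4 (Gfap, Vim, Atp1b2 and Aldoc) were higher in ctrl replicate 1 and 6 (Aqp4, Gja1, Aldh1l1, Fabp7, S100b and Lcn2) were higher in ctrl replicate 2. Summed over the 10 markers the libraries nevertheless differed little, at 69041 and 66083 normalized counts for the ctrl pair and 67763 and 64027 for the Zfp276cko pair.

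Lcn2 (lipocalin 2) encodes a small secreted protein that binds iron-loaded siderophores and is strongly induced in reactive astrocytes and in other cells under inflammation. The gene lies on the minus strand of chromosome 2 of mm10 from 32384633 to 32388252. It had 1624 (replicate 1) and 2665 (replicate 2) normalized counts in ctrl, against 5417 and 4916 in the Zfp276cko libraries. Both Zfp276cko libraries were high and the groups did not overlap. Means were 2144 ± 736 (SD, n = 2) for ctrl against 5167 ± 354 (SD, n = 2) for Zfp276cko. On the log2 scale the difference was 1.27 with a standard error of 0.27 and a 95% interval from 0.54 to 1.99 (edgeR adjusted p = 0.179). DESeq2 gave a log2 fold change of 1.25 with an adjusted p of 5.73e-04 and thereby turned the value into a call. With either ctrl library left out the difference was positive, at 0.96 without replicate 1 and 1.66 without replicate 2.

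Aldh1l1 encodes a cytosolic enzyme of folate metabolism that oxidizes formyltetrahydrofolate, and it labels astrocytes throughout the brain. It lies on the plus strand of chromosome 6 of mm10 from 90486427 to 90600203. Its annotated exons share 499 nt with Gm15756 on the opposite strand and 105 nt with Gm45901 on the same strand, and both of these had 0 counts in all 4 libraries. Aldh1l1 gave 316 and 617 normalized counts in the ctrl libraries, replicate 1 first, and 918 and 796 in the Zfp276cko libraries. The lower ctrl library was replicate 1, and the groups did not overlap. A log2 fold change of 0.88, with a standard error of 0.35, a 95% interval from -0.083 to 1.84 and an edgeR adjusted p = 0.351, did not pass the threshold, and its size depended on the ctrl library used, with 0.47 without replicate 1 and 1.43 without replicate 2.

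The reference sequences upstream of the RefSeq start sites (GRCm38.p6, the assembly of mm10) are shown for the 2 markers with the largest difference, Lcn2 and Aldh1l1, and for Gfap as the defining astrocyte gene with little difference. Only the longest stretch of the 250 bases before the start site without an annotated exon was printed, 5′ to 3′ on the strand of the gene, and capitals mark a match to a motif. The Lcn2 stretch has 53 bases (chr2:32387798-32387850, minus strand) and ends 58 bases before the start site. The stretch of Aldh1l1 has 246 bases (chr6:90550543-90550788, plus strand) and that of Gfap 250 bases (chr11:102897201-102897450, minus strand).
Lcn2: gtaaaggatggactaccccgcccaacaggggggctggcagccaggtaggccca
Aldh1l1: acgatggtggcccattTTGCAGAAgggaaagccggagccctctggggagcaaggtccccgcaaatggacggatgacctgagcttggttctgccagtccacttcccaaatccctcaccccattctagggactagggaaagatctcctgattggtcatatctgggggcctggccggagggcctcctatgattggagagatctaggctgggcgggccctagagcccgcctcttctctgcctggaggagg
Gfap: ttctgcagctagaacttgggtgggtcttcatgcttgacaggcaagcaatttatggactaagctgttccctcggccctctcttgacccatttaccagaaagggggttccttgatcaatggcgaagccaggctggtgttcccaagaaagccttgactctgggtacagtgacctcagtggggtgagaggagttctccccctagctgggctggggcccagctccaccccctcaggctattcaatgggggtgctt

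Promoters of 8 markers matched by symbol in the RefSeq table, which holds 32851 promoters. Aqp4 and Atp1b2 were not among them. Motifs were searched on both strands of the full 250 bases, with N for any base and no requirement on position, and no matches overlapped in the printed stretches. The C/EBP half-site pair TTGCNNAA was found for 2 markers (Aldh1l1 and Lcn2) and in 9.56% of all promoters. In Aldh1l1 it begins 234 bases before the start site and is the match in capitals, and in Lcn2 it lies outside the printed stretch. Annotated exons cover 197 of the 250 bases of Lcn2, and its match lies at least partly in them. The STAT half-site pair TTCNNNGAA was found for 1 marker (Aldoc) and in 7.02% of all promoters. In that Aldoc promoter 136 of the 250 bases are exonic, and the matches lie at least partly in them. The TATA box TATAAA was found for 1 marker (Vim) and in 12.4% of all promoters. All 250 bases of Vim lie in annotated exons, so this match is exonic. The interferon response motif GAAANNGAA and the NF-kB motif GGGANNTTC had 0 matches among the 8 markers, and they were in 7.13% and 3.23% of all promoters.

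Gfap and Vim encode the intermediate filament proteins of the astrocyte cytoskeleton. Vim is also made by precursor cells, microglia and fibroblasts. Gfap (chromosome 11 of mm10, 102887336 to 102900912, minus strand) was counted 17641 and 8463 times after normalization in ctrl and 12993 and 12248 times in Zfp276cko cells. The ctrl libraries were the highest and the lowest of the 4, so the groups overlapped. Its log2 fold change was -0.048, the standard error 0.38 and the 95% interval -1.07 to 0.97 (edgeR adjusted p = 0.966). It turned to 0.58 without ctrl replicate 1 and to -0.50 without replicate 2. The interval spans a change of about 2-fold either way, so the value does not show that Gfap was equal in both genotypes.

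Vim (chromosome 2, 13573927 to 13582826, plus strand) had 11881 (replicate 1) and 8466 (replicate 2) normalized counts in ctrl, against 13591 and 12480 in the Zfp276cko libraries. Both Zfp276cko libraries were the higher, without overlap, yet ctrl replicate 1 was closer to them than to ctrl replicate 2. The log2 fold change was 0.36 (standard error 0.20, edgeR adjusted p = 0.469), with 0.62 without ctrl replicate 1 and 0.12 without ctrl replicate 2.

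Aqp4, Gja1 and Atp1b2 encode membrane proteins. Aqp4 is the water channel of astrocyte endfeet, Gja1 the gap junction protein connexin 43, and Atp1b2 a beta subunit of the sodium pump that also acts in adhesion. Aqp4, a gene of chromosome 18, gave 1838 and 3818 normalized counts in the ctrl libraries, replicate 1 first, and 3055 and 3364 in the Zfp276cko libraries. Gja1 (chromosome 10, 56377330 to 56402513, plus strand) was counted 228 and 532 times after normalization in ctrl and 509 and 470 times in Zfp276cko cells. For both genes ctrl replicate 1 was the low library and the other 3 libraries lay close together. Atp1b2 (chromosome 11, 69599736 to 69605942, minus strand) had 8377 (replicate 1) and 3522 (replicate 2) normalized counts in ctrl, against 5523 and 5637 in the Zfp276cko libraries. There ctrl replicate 1 was the high library, and the Zfp276cko libraries lay between the ctrl libraries.

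The log2 fold changes of these membrane proteins were 0.18 for Aqp4, 0.36 for Gja1 and -0.092 for Atp1b2, with standard errors of 0.37, 0.43 and 0.43, and edgeR gave adjusted p-values of 0.851, 0.734 and 0.941. Each turned its direction without ctrl replicate 1, to -0.25, -0.12 and 0.66. Without ctrl replicate 2 the values were 0.79, 1.09 and -0.60.

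Aldoc and Fabp7 belong to metabolism. Aldoc is the brain form of the glycolytic enzyme aldolase, and Fabp7 carries fatty acids in astrocytes, radial glia and precursor cells. Aldoc (chromosome 11, 78322968 to 78327781, plus strand) gave 7123 and 4496 normalized counts in the ctrl libraries, replicate 1 first, and 4388 and 3851 in the Zfp276cko libraries. Both Zfp276cko libraries were lower, but the first of them and ctrl replicate 2 were almost equal. Its log2 fold change was -0.50 (standard error 0.25, edgeR adjusted p = 0.434), and only -0.13 without ctrl replicate 1 as against -0.80 without ctrl replicate 2. Fabp7 (chromosome 10, 57784881 to 57788450, plus strand) was counted 8806 and 16585 times after normalization in ctrl and 11043 and 10529 times in Zfp276cko cells. The Zfp276cko libraries lay between the ctrl libraries, and the difference was -0.24 on the log2 scale, with a standard error of 0.33 and an edgeR adjusted p = 0.775. It was -0.62 when ctrl replicate 1 was left out and 0.28 when ctrl replicate 2 was.

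S100b encodes a calcium-binding protein of astrocytes that is also made by oligodendroglial cells. It lies on chromosome 10 from 76253853 to 76261159 on the plus strand. It had 11207 (replicate 1) and 16920 (replicate 2) normalized counts in ctrl, against 10325 and 9738 in the Zfp276cko libraries. Both Zfp276cko libraries were lower without overlap, and ctrl replicate 1 was nearer to them than to the other ctrl library. Its log2 fold change was -0.49 (standard error 0.23, 95% interval -1.11 to 0.14, edgeR adjusted p = 0.405), with -0.75 without ctrl replicate 1 and -0.17 without ctrl replicate 2.

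**Figure D2:**
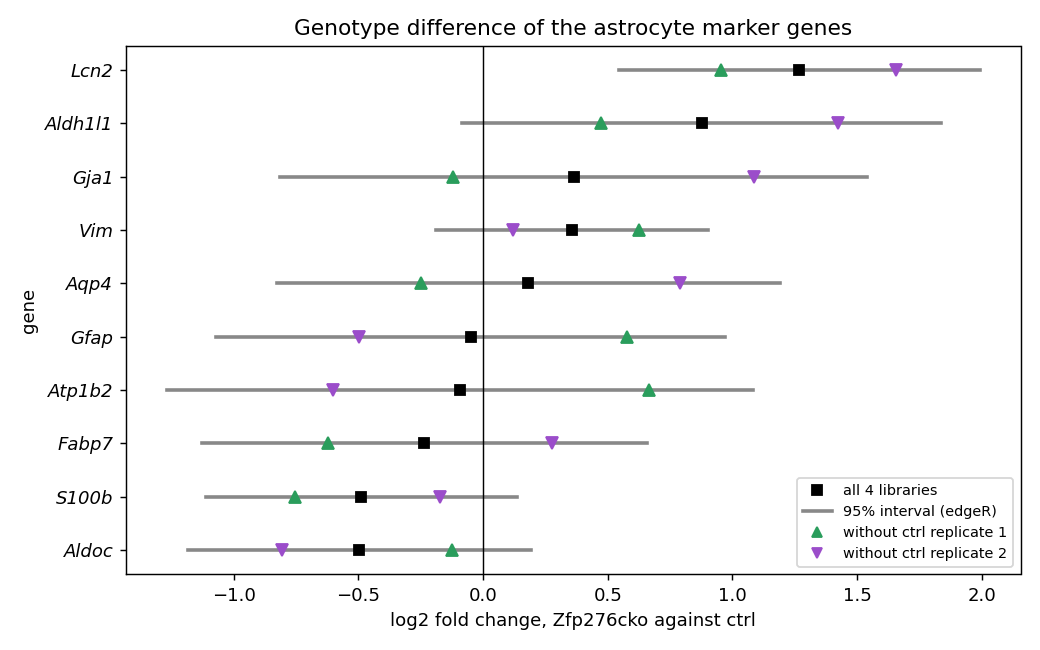
Log2 fold change of Zfp276cko against ctrl (horizontal axis) for each marker gene (vertical axis), with all 4 libraries (black squares), its 95% interval (grey lines) and the values without ctrl replicate 1 (green) or 2 (purple). The interval of Lcn2, from 0.54 to 1.99, lies above 0, the intervals of the other 9 markers include 0, and the green and purple points of Gfap, Aqp4, Gja1, Atp1b2 and Fabp7 lie on opposite sides of 0.

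Levels were compared between genes as RPKM, which are reads scaled by exon length and by library size. Averaged over the 4 libraries, Fabp7 was the most abundant marker with an RPKM of 397 ± 114 (SD, n = 4), followed by S100b with 343 ± 94.2. Their order was not firm, as Fabp7 was above S100b in 3 of 4 libraries. Gfap with 129 ± 37.8 and Vim with 104 ± 19.7 came next, and Gfap was above Vim in all 4 libraries although their ranges overlapped. Aldoc, Atp1b2 and Lcn2 had 64.4, 59.7 and 59.0 and could not be ordered, since Aldoc was above Atp1b2 in 2 libraries and Atp1b2 above Lcn2 in 1. The last 3 genes were apart from their neighbours in every library, with an RPKM of 20.5 ± 5.75 for Aqp4, 6.20 ± 2.45 for Aldh1l1 and 1.79 ± 0.58 for Gja1.

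The place of Lcn2 in this order differed between the genotype means. In ctrl cells its RPKM of 34.6 ± 11.9 (SD, n = 2) was below those of Aldoc (75.3 ± 24.1) and Atp1b2 (61.6 ± 35.6), and in Zfp276cko cells its RPKM of 83.3 ± 5.72 was above those of Aldoc (53.4 ± 4.92) and Atp1b2 (57.8 ± 0.83). Against Atp1b2 this rested on ctrl replicate 1, since in ctrl replicate 2 Lcn2 (RPKM 43.0) was already above Atp1b2 (36.5). Aldoc moved the other way by as many places.

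**Figure D3:**
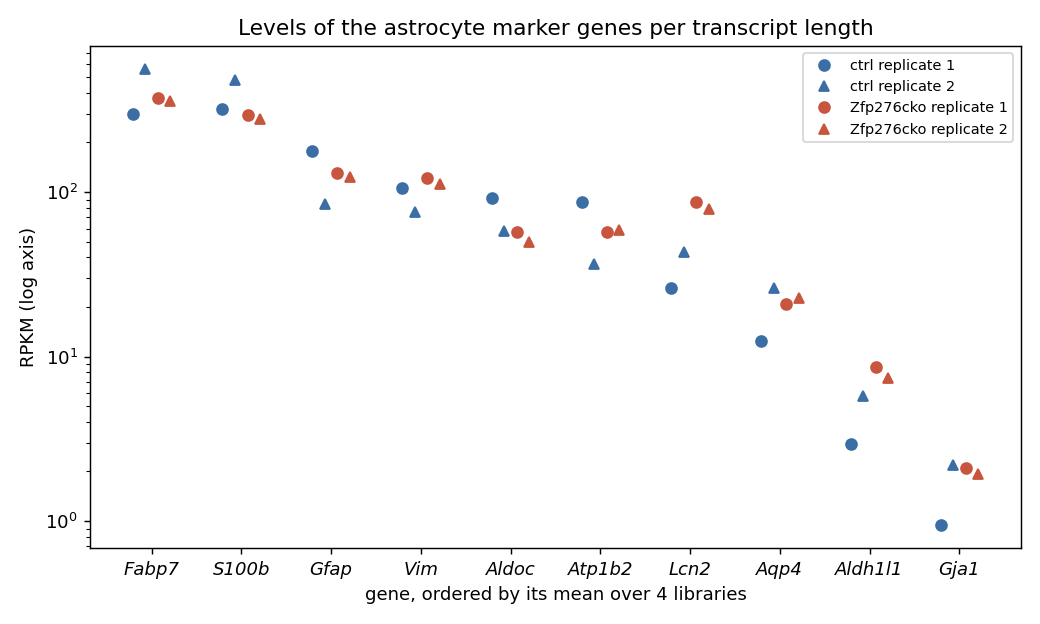
RPKM (vertical log axis) of the 10 marker genes in each library, with ctrl in blue, Zfp276cko in red, circles for replicate 1 and triangles for replicate 2, ordered by the mean over 4 libraries. Fabp7 and S100b lie between 278 and 561, and Gja1 lies between 0.94 and 2.20.

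A list of 40 further astrocyte genes was read in the same way. Of its 35 tested genes, 0 were called by edgeR, 5 were higher and 2 lower at an unadjusted p of at most 0.05 (all tested genes 8.33% and 7.3%), and DESeq2 called 4 higher and 1 lower (all genes 3.05% and 2.3%). Both Zfp276cko libraries lay above the ctrl libraries for 10 genes and below for 2, against 26.8% and 23.7% of all tested genes. The first count lay near the background and the second lay below it. The median log2 fold change was -0.036, with 17 genes positive and 18 negative. It turned to 0.10 without ctrl replicate 1 and to 0.30 without ctrl replicate 2, so it had no firm direction. Some genes of the mature astrocyte were at or near 0. Gjb6 (connexin 30), Slc7a10 (an amino acid transporter) and Etnppl (a phospholyase) had 3 counts or fewer in every library. Other transporter and enzyme genes of astrocytes were well counted. Slc1a3, the glutamate transporter GLAST, had between 2674 and 6747 normalized counts, and Slc1a2 had between 3023 and 4592.

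Apoe, the main carrier of cholesterol secreted by astrocytes and microglia, gave 30593 and 22682 normalized counts in the ctrl libraries, replicate 1 first, and 54490 and 50557 in the Zfp276cko libraries. The groups did not overlap, and the log2 fold change was 0.98 (standard error 0.20, edgeR adjusted p = 0.172, DESeq2 adjusted p = 5.95e-04). Mt2, a metallothionein that binds zinc and copper, was 2.52 times the ctrl level with a log2 fold change of 1.33 (edgeR adjusted p = 0.172, DESeq2 adjusted p = 7.87e-04). Tnc, an extracellular matrix glycoprotein of immature astrocytes, was counted 1336 and 1090 times after normalization in ctrl and 613 and 569 times in Zfp276cko cells. Its log2 fold change was -1.04 (edgeR adjusted p = 0.123, DESeq2 adjusted p = 7.38e-05). Hepacam, an adhesion protein of endfeet, was at 76.6% of ctrl (log2 fold change -0.39, edgeR adjusted p = 0.229). Sparcl1, a secreted protein with a role in synapse formation, had a log2 fold change of 0.21, or 0.43 with ctrl replicate 1 left out and 0.0051 with ctrl replicate 2 left out.

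Reactive astrocytes were described by 3 lists of genes known from inflamed or ischaemic brain. Of 10 genes of reactivity in general, 3 were higher and 0 lower by an unadjusted p of 0.05 or less (all tested genes 8.33% and 7.3%), with a median log2 fold change of 0.65. Cp (ceruloplasmin, a copper protein that oxidizes iron) had 2969 (replicate 1) and 1613 (replicate 2) normalized counts in ctrl, against 5064 and 5220 in the Zfp276cko libraries. Its log2 fold change was 1.17 (edgeR adjusted p = 0.229, DESeq2 adjusted p = 0.0127). Cxcl10, a chemokine that is induced by interferon in many cell types, gave 34.4 and 295 normalized counts in the ctrl libraries, replicate 1 first, and 1394 and 1307 in the Zfp276cko libraries, with a log2 fold change of 3.03 (edgeR adjusted p = 0.280) that came to 2.20 if ctrl replicate 1 was left out and to 5.27 if ctrl replicate 2 was. Serpina3n, a protease inhibitor typical of reactive astrocytes and also known from oligodendroglial cells, did not share this order. It was counted 8297 and 765 times after normalization in ctrl and 4616 and 4686 times in Zfp276cko cells. The ctrl replicates thus enclosed the Zfp276cko libraries. Of the 10 genes, 7 had a positive and 3 a negative log2 fold change. The lowest was that of Timp1 at -1.81, which was 0.25 without ctrl replicate 1. Timp1 had 391 normalized counts in ctrl replicate 1, 52.9 in ctrl replicate 2, and 66.1 and 60.1 in Zfp276cko cells.

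The list of neuroinflammatory reactivity had 11 tested genes of 12, of which 5 were higher and 0 lower at an unadjusted p of at most 0.05 (all tested genes 8.33% and 7.3%). Both Zfp276cko libraries were above the ctrl libraries for 8 and below for 1, against 26.8% and 23.7% of all tested genes. Its median log2 fold change was 1.11, and it was 1.89 without ctrl replicate 1. Iigp1 (an interferon-inducible GTPase) had 24.9 (replicate 1) and 42.8 (replicate 2) normalized counts in ctrl, against 947 and 1077 in the Zfp276cko libraries. Its log2 fold change was 4.89 (standard error 0.31, edgeR adjusted p = 0.0962, DESeq2 adjusted p = 8.38e-46). H2-T23 and H2-D1, which encode antigen-presenting class I proteins, had log2 fold changes of 3.10 and 1.11 (edgeR adjusted p = 0.251 and 0.460). These were 5.05 and 2.26 when ctrl replicate 1 was left out, and 2.29 and 0.46 when ctrl replicate 2 was. The members with the largest values are known as genes induced by interferon in most cell types, not in astrocytes alone. Ugt1a1 had 3 counts or fewer in every library and was not tested.

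The list of ischaemic reactivity had a median log2 fold change of 0.16 over 11 tested genes of 12, with 2 higher and 0 lower at an unadjusted p of at most 0.05 (all tested genes 8.33% and 7.3%). The median depended on the libraries, at 0.52 without ctrl replicate 1, 0.11 without ctrl replicate 2, 0.26 without Zfp276cko replicate 1 and 0.029 without Zfp276cko replicate 2. Tgm1 (a transglutaminase) gave 83.1 and 107 normalized counts in the ctrl libraries, replicate 1 first, and 331 and 317 in the Zfp276cko libraries, a log2 fold change of 1.77 (edgeR adjusted p = 0.117, DESeq2 adjusted p = 6.97e-07). Clcf1, a cytokine of the CNTF family, had a log2 fold change of 0.92 (edgeR adjusted p = 0.286). Cd14 and S100a10 were highest in ctrl replicate 1, with 3603 and 742 normalized counts, and in the other 3 libraries Cd14 lay between 1383 and 1448. By edgeR 0 genes of the 3 reactive lists were called, as were 0% of all tested genes. The general, neuroinflammatory and ischaemic lists had 10, 11 and 11 genes tested by edgeR. DESeq2 called 1, 4 and 1 of their genes higher and 0 lower (all genes 3.05% and 2.3%).

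**Figure D4:**
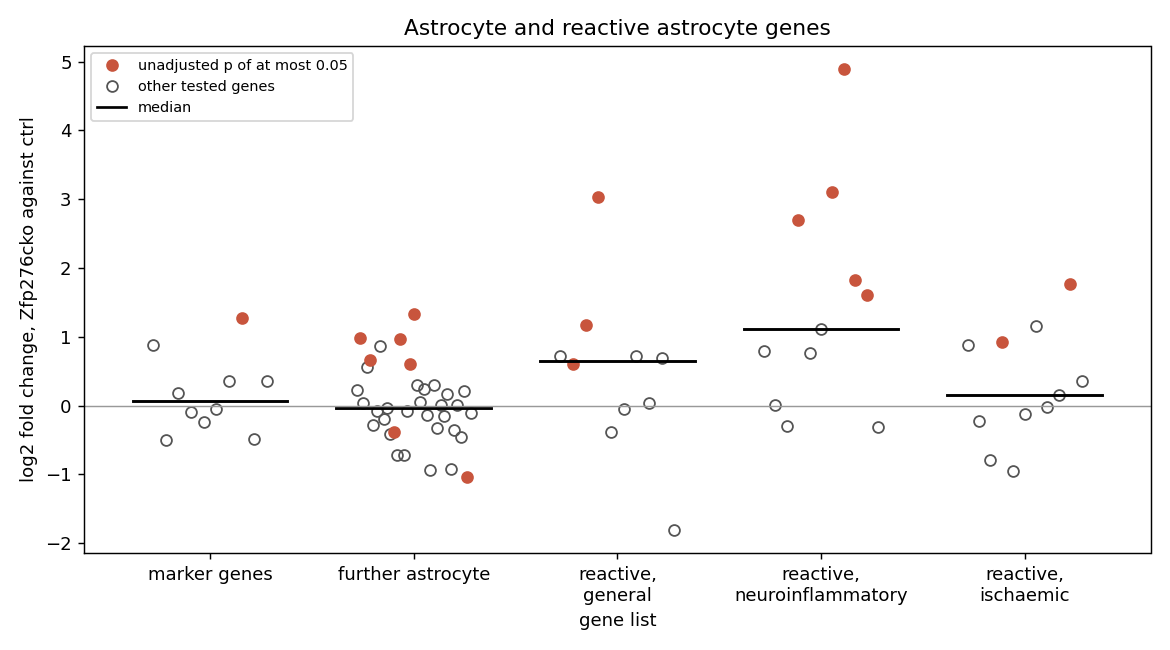
Log2 fold change of Zfp276cko against ctrl (vertical axis) for each tested gene of the marker, further astrocyte and reactive lists (horizontal axis), with filled points for an unadjusted p of at most 0.05 and bars for the median. The medians are 0.067, -0.036, 0.65, 1.11 and 0.16 from left to right, and the highest point is Iigp1 at 4.89.

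Markers of other cells were measured beside these values, and their part in the differences was not tested. The 12 microglial genes had sums of 50577 (replicate 1) and 27705 (replicate 2) normalized counts in ctrl, against 41372 and 42618 in the Zfp276cko libraries, so that the groups overlapped. At an unadjusted p of at most 0.05, 3 of them were higher and 0 lower in Zfp276cko cells, where the shares of all tested genes were 8.33% and 7.3%. Ptprc (CD45, a phosphatase of blood-derived and microglial cells) and Cd68 (a lysosomal protein of phagocytes) had log2 fold changes of 0.76 and 0.99 (edgeR adjusted p = 0.117 and 0.241), and that of Cd68 was 0.64 without ctrl replicate 2. Of the 12, 7 had a positive and 5 a negative log2 fold change. Csf1r and Trem2 were at -1.12 and -1.01, with both Zfp276cko libraries between the ctrl libraries. All 12 were counted in every library, and none was at 0.

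The 9 fibroblast and mural cell genes summed to 9768 normalized counts in ctrl replicate 1 and to between 340 and 670 in the other 3 libraries. Col1a2, a collagen chain of fibroblasts, had 2703 normalized counts in ctrl replicate 1 and between 41.2 and 49.8 in the others. Acta2 and Tagln, contractile proteins of mural cells, were lower in both Zfp276cko libraries, with log2 fold changes of -2.84 and -3.04 (edgeR adjusted p = 0.186 and 0.209), which were -1.76 and -1.68 without ctrl replicate 1.

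The 12 neuronal genes summed to 3898 normalized counts in ctrl replicate 1 and to between 11102 and 12907 in the other 3 libraries. The 11 oligodendroglial genes had sums of 236757 (replicate 1) and 294416 (replicate 2) in ctrl, against 157172 and 157592 in the Zfp276cko libraries. Of these 11, 9 were lower and 0 higher at an unadjusted p of at most 0.05 (all tested genes 7.3% and 8.33%), with a median log2 fold change of -0.86. From the lowest to the highest library the sum of the 10 astrocyte markers differed 1.08 times, that of the 40 further astrocyte genes 1.43 times and that of all tested genes 1.11 times. The near-constant sum of the markers joins genes that differed in opposite directions between the ctrl libraries.

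**Figure D5:**
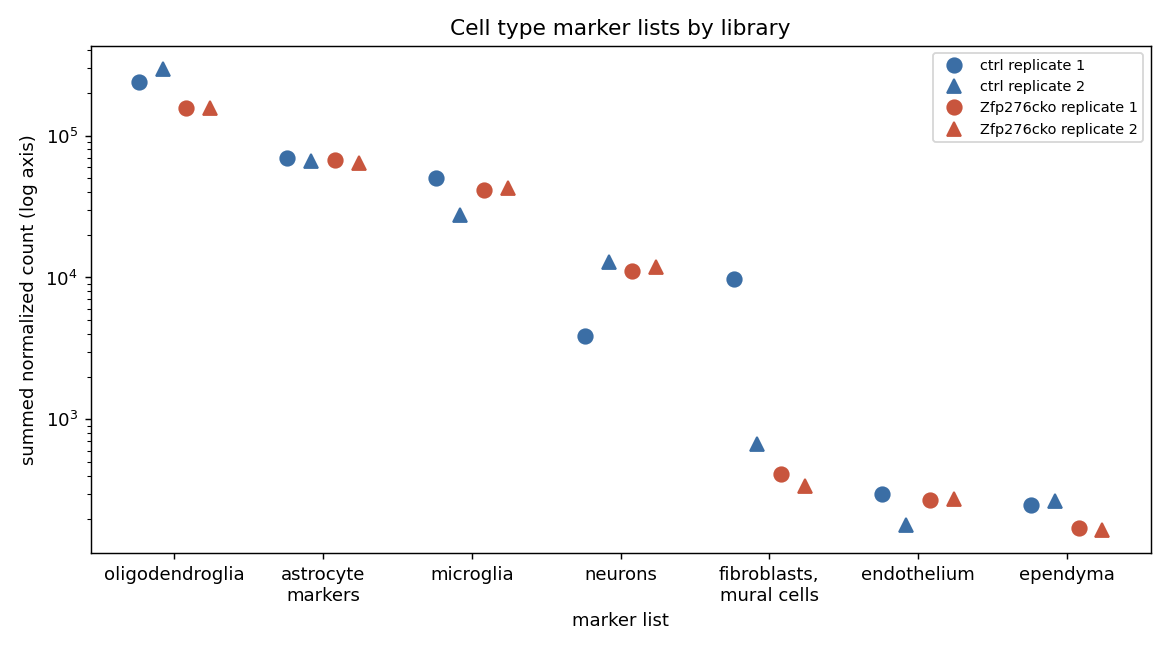
Summed normalized counts (vertical log axis) of the marker lists of cell types (horizontal axis) in each library, with ctrl in blue, Zfp276cko in red, circles for replicate 1 and triangles for replicate 2. The astrocyte markers lie between 64027 and 69041, and ctrl replicate 1 stands apart for fibroblast and mural cell markers at 9768 and for neuronal markers at 3898.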

How the data were processed

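The authors aligned single-end reads from stranded mRNA libraries with STAR 2.5.4a (genome mm10) and deposited whole-number counts of uniquely mapped reads per gene symbol, without normalization. The study's methods name HTSeq for the counting and the submitters' processing notes name featureCounts 1.5.1, and the strand setting is not given in the sources used here. Counted reads per library were between 21068322 and 26599809. Repeated symbols stayed separate entries.

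With R 4.3.3 and edgeR 4.0.16, genes were kept by filterByExpr (15766 of 53465), normalized with TMM and compared between genotypes (2 libraries each) by the quasi-likelihood test with Benjamini-Hochberg adjustment over all tested genes. DESeq2 1.42.0, the study's tool, was an alternative, with those of the closing section. Normalized counts were scaled to the mean effective library size. RPKM used the summed exon length of the GENCODE M21 annotation of mm10. The fit was tested on simulated counts for the sign and size of fold changes. The share of changed genes that it calls there is not reported here.

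The members and lists were chosen with earlier results of these data known. The 10 markers and Zfp276 are named, and from each further list the 2 most abundant genes, up to 2 per direction with the largest log2 fold change at an unadjusted p of at most 0.05 and without overlap, and genes with 3 counts or fewer in every library. 1 gene that this rule names is not reported here. Slc1a3, Slc1a2, Timp1, Csf1r and Trem2 were named after their values were seen. Where the labels separate replicates they name them biological.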

Additional observations from a re-analysis of the deposited data

How the results depend on the processing

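Under 5 alternatives (a replicate block, DESeq2's Wald test, its size factors within edgeR, keeping all counted genes, and a minimum of 10 counts per library) 47 of 50 fold changes of single markers kept their direction and their side of the threshold. DESeq2 called Lcn2, which made 1 marker called higher. The markers higher at an unadjusted p of at most 0.05 numbered 2 with all counted genes kept and 2 with the replicate block. DESeq2 gave 2 higher and 1 lower. The shares of all genes at this p were not computed for these settings, so the counts cannot be set against a background. With the replicate block, Gfap (0.046) and Atp1b2 (0.038) turned to positive log2 fold changes, and 0 markers were called. Same-numbered libraries did not deviate together (r = 0.0067 across 14324 genes, which are not independent replicates), so the numbers were not taken as pairs. With each library left out in turn, 5 of 40 fold changes reversed and 7 moved beyond the spread, all without a ctrl library. Without ctrl replicate 1 these were Gfap (0.58), Aqp4 (-0.25), Gja1 (-0.12) and Atp1b2 (0.66), and without ctrl replicate 2 Fabp7 (0.28). These fits leave 1 ctrl library and were used without a test. The ranges were -0.50 to 0.58 for Gfap, -0.25 to 0.79 for Aqp4, -0.12 to 1.09 for Gja1, -0.60 to 0.66 for Atp1b2 and -0.62 to 0.28 for Fabp7. The median of the 10 markers lay between 0.054 and 0.20. Counted without ctrl replicate 1, a choice made after seeing the data, 5 markers lay above and 5 below the remaining ctrl library. Without ctrl replicate 2, 6 lay above and 4 below. That all 10 were then separated was fixed in advance. Each marker was either separated already or had both Zfp276cko libraries between the ctrl libraries. The separation therefore carries no support. The cause of the changes on leaving out a library was not tested. With 2 libraries per genotype the precision is limited, and how much of this is due to depth was not tested.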

Other observations

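Vessel and ependymal cells left few reads in these cultures. The 6 endothelial genes summed to between 179 and 296 normalized counts per library, and Cldn5 and Tek, defining genes of brain endothelium, had 3 counts or fewer in every library. Pecam1, an adhesion protein of endothelium and some immune cells, had 106 (replicate 1) and 93.4 (replicate 2) normalized counts in ctrl, against 153 and 161 in the Zfp276cko libraries (log2 fold change 0.66, edgeR adjusted p = 0.282). Of the 6 ependymal genes, Ccdc153 and Tmem212 had 3 counts or fewer in every library. Foxj1, the regulator of motile cilia, gave 205 and 230 normalized counts in the ctrl libraries, replicate 1 first, and 126 and 124 in the Zfp276cko libraries, with a log2 fold change of -0.80 (edgeR adjusted p = 0.199).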
